A study of Schizosaccharomyces pombe with 4 samples.

Results

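Thiamine (vitamin B1) is made by fission yeast from a pyrimidine and a thiazole that are built separately and then joined, and its diphosphate is the cofactor of pyruvate dehydrogenase, acetolactate synthase and other enzymes. When thiamine is in the medium, the cells shut down the genes for its synthesis, its uptake and a cell surface acid phosphatase, and the zinc cluster transcription factor Thi1 is needed to switch them on when thiamine is absent. The promoter of nmt1, the best known of these genes, is used in many fission yeast expression vectors, which are turned on by leaving thiamine out.

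The 8 genes described here are nmt1, thi2, thi4, thi9, bsu1, pho4, thi1 and thi5, a list of thiamine-regulated genes taken by name from the probe annotation of the array. Each had 1 probe set with that name, so all 8 of 8 were found among 2899 named Schizosaccharomyces pombe genes, and all 8 lay above background on every array. Of the 2899 genes, 2857 passed the background filter and were tested. Transcript levels were measured on Affymetrix yeast arrays in a strain called wild type that carried the empty vector (the control) and in an Atf1-OP strain overexpressing Atf1, the bZIP transcription factor at the end of the Sty1 stress kinase cascade, with 2 arrays per group that the labels call biological replicates. The vector, the promoter driving Atf1, the growth medium and its thiamine content are named in none of the labels used here. All levels below are log2 probe set values, so a difference of 1 is a 2-fold change, and a level is compared only with the same gene's level on other arrays. Unless said otherwise they were quantile normalized across the 4 arrays, and a gene is said to have risen or fallen only at a limma adjusted p under 0.05.

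Under Atf1 overexpression nmt1, bsu1 and pho4 rose, by 1.59-fold, 1.43-fold and 1.34-fold, and none of the 8 genes fell. The other 5 did not pass: thi1 differed by 0.44, thi4 by 0.28, thi9 by 0.18, thi2 by 0.03 and thi5 by -0.16 on the log2 scale. At an unadjusted limma p under 0.05, 5 of the 8 were higher and none lower, against 18.4% higher and 19.9% lower among all tested genes. At the adjusted threshold 10.3% of all tested genes rose and 11.0% fell, and 3 of 8 is to be read against that. The median log2 difference of the 8 genes was 0.35, beside -0.01 over all 2857 genes. Of the 8 differences 7 were positive, beside 1398 of 2857 over all tested genes.

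Some differences between the arrays ran parallel with the groups. Hybridization controls, added to each sample in fixed amount, were lower under overexpression on 27 of 27 probe sets, with a mean of 11.9 in the control and 10.9 under overexpression in the deposited values. Added poly-A transcripts were higher on 8 of 8 probe sets at each position, by most at the 5′ end (3.05 against 4.76), by less in the middle (5.90 against 7.17) and by least at the 3′ end (8.92 against 9.31). Conversely, S. pombe ribosomal RNA was lower on 7 of 7, at 11.1 against 10.4. The median of all tested genes lay 0.27 higher under overexpression in the deposited values. The part of these differences in the results below was not tested. The atf1 transcript itself stood at 6.13 and 6.42 on the empty vector arrays and at 6.83 and 7.37 on the overexpression arrays, 1.78-fold higher (limma, adjusted p = 0.0256), though the position of its probe set relative to the overexpressed copy is not known. Its adjusted p was 0.132, 0.0849 and 0.159 without control replicate 1, control replicate 2 and overexpression replicate 2.

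**Figure D1:**
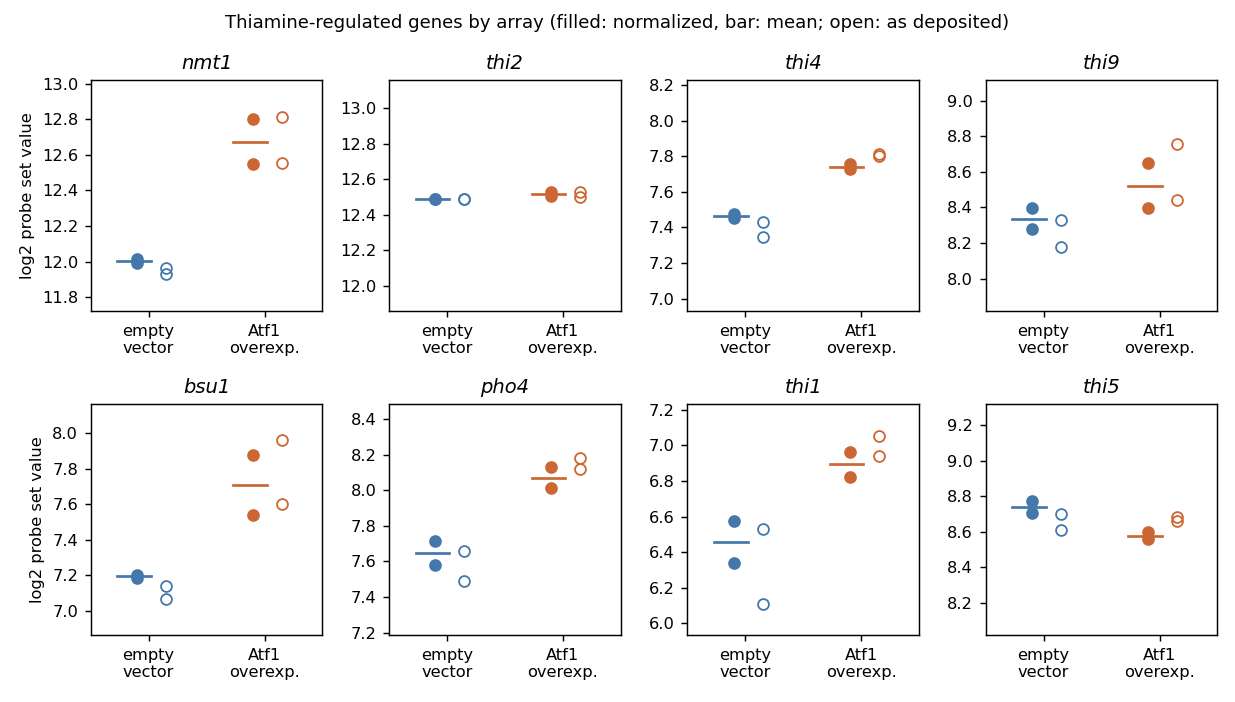
Level of each of the 8 genes on each array, on a log2 scale whose span is the same in every panel; filled points are quantile normalized values with their group mean as a bar, open points are the values as deposited, and each group has 2 arrays. Filled points of nmt1, bsu1, pho4, thi1 and thi4 lie higher on both overexpression arrays, those of thi2 almost coincide, those of thi5 lie lower, and the groups of thi9 overlap.

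Of the synthesis genes, nmt1 passed and thi2 and thi4 did not. The product of nmt1 (SPCC1223.02, chromosome III) makes the pyrimidine part of thiamine. Its level was 11.99 and 12.02 on the empty vector arrays and 12.55 and 12.80 on the overexpression arrays. Both overexpression arrays were higher than both control arrays, by at least 0.53, while the arrays differed by 0.03 within the control and by 0.25 within the overexpression group. The means were 12.00 ± 0.02 (SD, n = 2) and 12.67 ± 0.18 (SD, n = 2), a log2 difference of 0.67 ± 0.08 (SE), with a 95% interval of 0.48 to 0.86 (limma, adjusted p = 0.00415). Without control replicate 1 the adjusted p was 0.0519, at a log2 difference of 0.63, and nmt1 passed when any one of the other 3 arrays was left out. The position of the nmt1 probe set is not known, nor whether the vector holds nmt1 sequence that this probe set would read, so the values may not be those of the chromosomal gene alone.

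The thiazole part is made by the product of thi2 (SPBC26H8.01, chromosome II), also called nmt2. As deposited, thi2 read 12.49 and 12.49 on the empty vector arrays and 12.50 and 12.53 on the overexpression arrays. The overexpression arrays were higher than the control arrays by no more than a few hundredths of a log2 unit. After normalization the difference was 0.03 ± 0.05 (SE), with a 95% interval of -0.09 to 0.15 (limma, adjusted p = 0.727), so a change beyond 1.11-fold upward lies outside the interval. Normalization gave both control arrays the same value, so their spread after it is not known. With median centring the difference was -0.19. Both nmt1 and thi2 read near the upper end of the deposited scale, which ran from 1.46 to 14.0.

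Because nmt1 and thi2 were read on the same arrays, a shift of all values of an array by the same amount leaves their log2 ratio unchanged. Array differences that are unlike between probe sets, as those of the control probe sets were, do not cancel in it. In the deposited values nmt1 less thi2 was -0.56 and -0.53 on the empty vector arrays and 0.05 and 0.29 on the overexpression arrays. Both overexpression arrays lay above both control arrays, with a difference of 0.71 between the group means of -0.54 ± 0.02 (SD, n = 2) and 0.17 ± 0.16 (SD, n = 2). It was chosen after the values were seen, and an exact permutation test of 2 against 2 arrays cannot give a two-sided p below 0.333. After quantile normalization the difference was 0.64. With normalized values and without overexpression replicate 2 it was 0.53.

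Joining of the pyrimidine and the thiazole and salvage of the thiazole are carried out by the bifunctional enzyme encoded by thi4 (SPAC23H4.10C, chromosome I). Its level was 7.47 and 7.45 on the empty vector arrays and 7.75 and 7.73 on the overexpression arrays. The groups did not overlap, and the arrays within each differed by 0.02 and 0.03. The log2 difference of 0.28 ± 0.10 (SE) had a 95% interval of 0.04 to 0.52 and did not pass over all genes (limma, adjusted p = 0.0938). In the deposited values it was 0.42 and passed (limma, adjusted p = 0.0238).

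Uptake is represented by thi9 (SPAC9.10, chromosome I), which encodes a thiamine transporter, and bsu1 (SPAC17A2.01, chromosome I), which encodes a thiamine-repressed transporter of vitamin B6. The level of bsu1 was 7.18 and 7.20 on the empty vector arrays and 7.54 and 7.88 on the overexpression arrays. Both overexpression arrays were above the control, but they differed from each other by 0.33 and the control arrays by 0.02. The log2 difference was 0.51 ± 0.14 (SE), with a 95% interval of 0.20 to 0.83 (limma, adjusted p = 0.0342).

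For thi9 the groups overlapped. Its level was 8.40 and 8.28 on the empty vector arrays and 8.39 and 8.65 on the overexpression arrays, so overexpression replicate 1 lay between the control arrays and overexpression replicate 2 above them. The log2 difference was 0.18 ± 0.11 (SE), with a 95% interval of -0.08 to 0.45 (limma, adjusted p = 0.265). It was 0.06 without overexpression replicate 2 and 0.31 without overexpression replicate 1 (adjusted p = 0.0786), and did not pass in either. A rise up to the upper bound, 1.36-fold, is inside that interval, so these arrays do not show that thi9 behaved unlike bsu1.

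The acid phosphatase gene pho4 (SPBC428.03C, chromosome II) is repressed by thiamine, unlike the acid phosphatase gene pho1, which answers to phosphate. Its level was 7.71 and 7.58 on the empty vector arrays and 8.13 and 8.01 on the overexpression arrays. Groups did not overlap, with a gap of 0.30 between the nearest arrays against differences of 0.13 and 0.12 within groups. The log2 difference was 0.43 ± 0.11 (SE), with a 95% interval of 0.17 to 0.68 (limma, adjusted p = 0.0293).

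The calls of bsu1 and pho4 were lost in most fits on 3 arrays. When each array was left out in turn, bsu1 passed only without overexpression replicate 1 (limma, adjusted p = 0.0213) and had adjusted p values of 0.151 and 0.166 when control replicate 1 or 2 was left out and 0.130 when overexpression replicate 2 was. For pho4 no such fit passed, with adjusted p values of 0.116 and 0.217 when control replicate 1 or 2 was left out and of 0.0810 and 0.0738 when overexpression replicate 1 or 2 was, at log2 differences of 0.36 to 0.49. The log2 difference of bsu1 ran from 0.35 without overexpression replicate 2 to 0.69 without overexpression replicate 1. Without control replicate 1 none of the 8 genes passed, beside 1.30% of all genes that rose, and without control replicate 2 nmt1 alone passed, beside 1.72%. All 8 differences kept their sign in these 4 fits.

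The regulators thi1 and thi5 both encode transcription factors. The level of thi1 (SPAC1486.10, chromosome I), the activator of the thiamine genes, was 6.58 and 6.34 on the empty vector arrays and 6.96 and 6.82 on the overexpression arrays. Both overexpression arrays were higher, and the gap between the groups, 0.25, was about the size of the difference between the control arrays, 0.24. The log2 difference of 0.44 ± 0.15 (SE), with a 95% interval of 0.10 to 0.77, did not pass (limma, adjusted p = 0.0700). It passed in the deposited values, at 0.68 (limma, adjusted p = 0.0227), and with median centring, at 0.46 (limma, adjusted p = 0.0435). It did not pass with quantile normalization over all probe sets (limma, adjusted p = 0.0753) or with a correction for gene length (limma, adjusted p = 0.0741). With 1 array left out the difference ran from 0.30 without control replicate 2 to 0.54 without control replicate 1.

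Normalized values of thi5 (SPBP8B7.30C, chromosome II) were 8.77 and 8.71 on the empty vector arrays and 8.60 and 8.56 on the overexpression arrays, lower on both overexpression arrays. The deposited values were 8.70 and 8.61 on the empty vector arrays and 8.66 and 8.68 on the overexpression arrays, and there the groups overlapped. The log2 difference was -0.16 ± 0.09 (SE) after normalization, with a 95% interval of -0.36 to 0.04 (limma, adjusted p = 0.207), and 0.01 as deposited (adjusted p = 0.914), so its direction followed the scaling. Within the arrays the log2 ratio of thi1 to thi5 in the deposited values, also chosen after the values were seen, was -2.17 and -2.50 on the empty vector arrays and -1.60 and -1.74 on the overexpression arrays, a difference of 0.66 with no overlap between the groups, and 0.60 after quantile normalization. The same smallest exact p of 0.333 applies.

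Counted over the 8 genes, 6 had both overexpression values above both control values, 1 (thi5) had both below, and 1 (thi9) overlapped. Over all tested genes 32.1% were higher and 34.0% lower without overlap. In the deposited values 5 of the 8 rose, namely nmt1, bsu1, pho4, thi1 and thi4, but so did 31.6% of all genes. After the shift of 0.27 of the median gene was taken off, the deposited differences were 0.47 for nmt1, 0.41 for bsu1 and for thi1, 0.31 for pho4, 0.15 for thi4, 0.08 for thi9, -0.24 for thi2 and -0.25 for thi5.

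**Figure D2:**
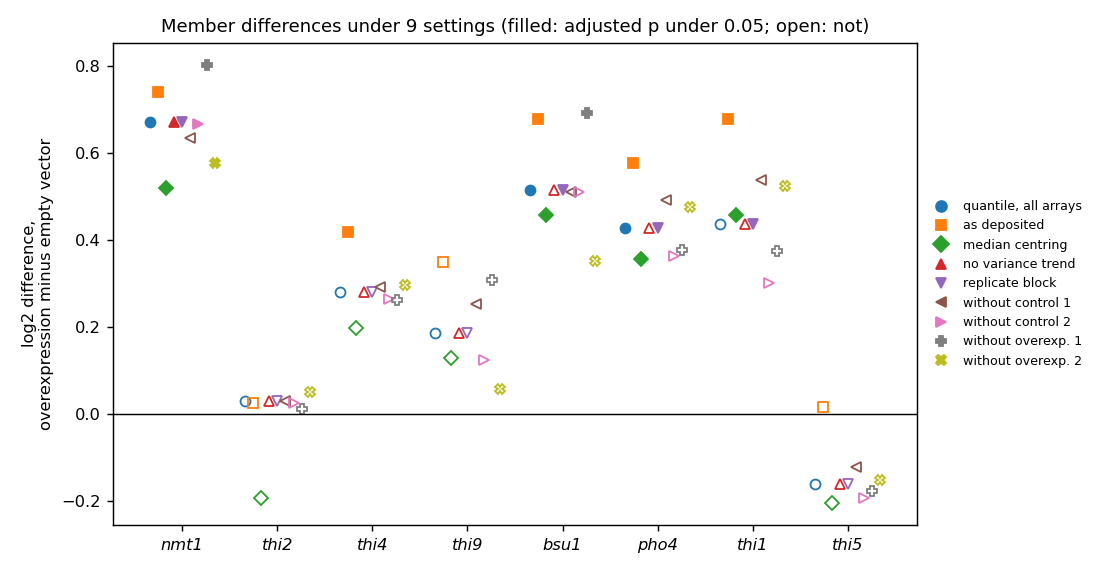
Log2 difference between overexpression and empty vector (vertical axis) of each of the 8 genes under 9 ways of processing; filled symbols had a limma adjusted p under 0.05 and open symbols did not. The symbols of nmt1 are filled in all settings shown except that without control replicate 1, those of thi2, thi9 and thi5 are open throughout, and only thi2 and thi5 have symbols on both sides of 0.

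The 8 genes lie on all 3 chromosomes, and none is the nearest protein-coding gene of another. By the RefSeq table their gene lengths ran from 1174 bp (thi2) to 3316 bp (thi4), and the genes that rose were 1250 bp (nmt1), 2034 bp (bsu1) and 1705 bp (pho4) long. A correction of each array for gene length left the differences of these 3 at 0.71, 0.50 and 0.43, and each passed.

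Of the 16 protein-coding genes that flank the 8, 8 were tested. Of these neighbours 2 rose and 1 fell, beside 10.3% of all tested genes that rose and 11.0% that fell. The median log2 difference of the 8 neighbours was -0.08. Both neighbours of pho4 changed, in opposite directions: eca39, a branched-chain amino acid aminotransferase gene, rose by 0.72 ± 0.13 (SE; limma, adjusted p = 0.0106), and apq12, a nuclear envelope protein gene, fell by 0.51 on the log2 scale (limma, adjusted p = 0.0339). With the deposited values apq12 differed by -0.31 and did not pass (limma, adjusted p = 0.0797). Their values were 9.40 and 9.44 on the empty vector arrays and 9.94 and 10.34 on the overexpression arrays for eca39. For apq12 they were 9.58 and 9.57, then 9.28 and 8.84. Beside thi9, the methionine synthesis gene met26 rose by 0.48 ± 0.10 (SE; limma, adjusted p = 0.0177). The one measured neighbour of nmt1, the glycerol-3-phosphate dehydrogenase gene gut2, differed by -0.30 (limma, adjusted p = 0.0559), which is opposite in sign to nmt1, and it passed with median centring (limma, adjusted p = 0.0258) and the length correction (limma, adjusted p = 0.0199). Neighbours of thi1 (tea3, -0.34), thi2 (sec9, 0.24) and thi4 (cnl2, -0.14, and cdb4, -0.02) did not pass, although tea3 passed with median centring (limma, adjusted p = 0.0443) and sec9 with the deposited values (limma, adjusted p = 0.0176). No neighbour of bsu1 or thi5 had a probe set matched to it. Here and below a gene counts as measured only if a probe set was matched to it through the annotation. Of the 10928 probe sets, 5177 had no gene name there, and whether any of them reads a gene listed here is not known. None of met26, eca39 and apq12 passed without a control array: the adjusted p values without control replicate 1 and without control replicate 2 were 0.103 and 0.113 for met26, 0.0731 and 0.0809 for eca39, and 0.157 and 0.166 for apq12.

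**Figure D3:**
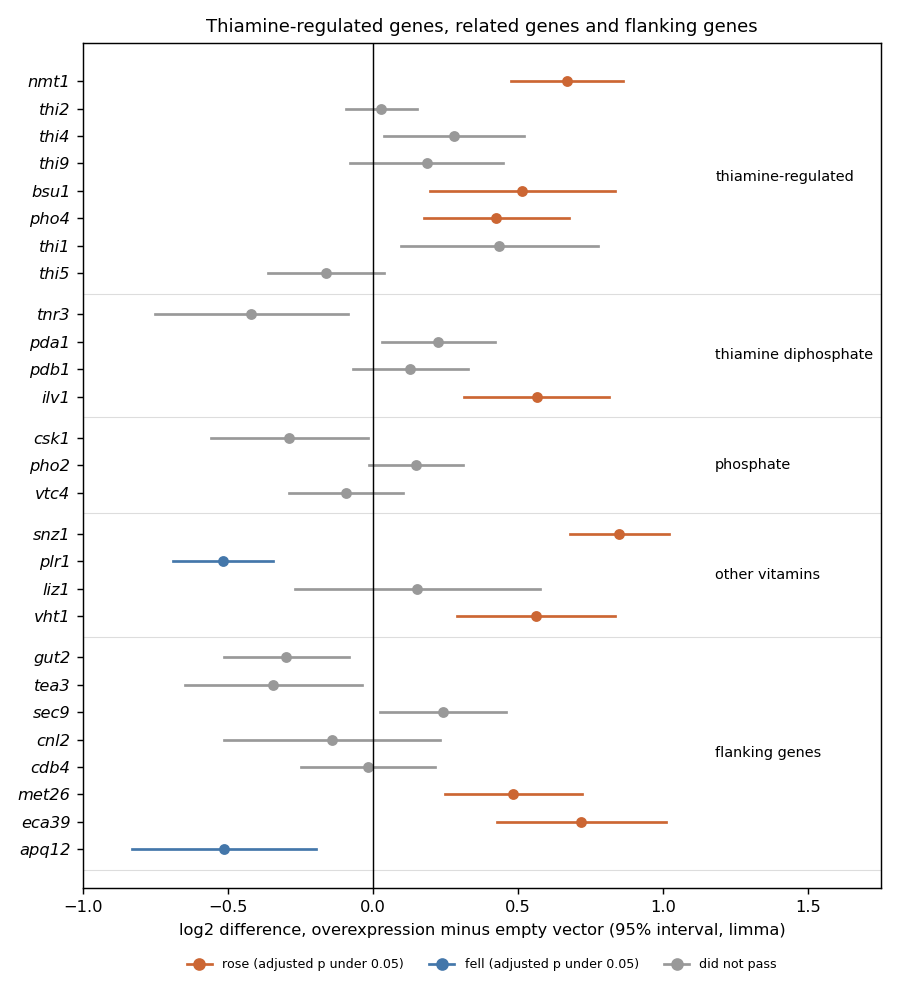
Log2 difference between overexpression and empty vector (horizontal axis) with its 95% limma interval for the 8 thiamine-regulated genes, for related genes and for the genes flanking the 8; colour gives the call at an adjusted p under 0.05. Among the 8, the intervals of nmt1, bsu1, pho4, thi1 and thi4 lie above 0, and in the other lists intervals lie on both sides.

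Genes that turn thiamine into its diphosphate or use it as cofactor were measured for 4 of 10 listed. Of these, ilv1 rose, beside 10.3% of all tested genes, and the other 3 did not pass. The product of ilv1 is acetolactate synthase of branched-chain amino acid synthesis. The median difference of all 4 was 0.18. The level of ilv1 was 8.57 and 8.43 on the empty vector arrays and 8.95 and 9.18 on the overexpression arrays, a difference of 0.56 ± 0.11 (SE; limma, adjusted p = 0.0136), and its adjusted p was 0.0712, 0.131 and 0.0601 without control replicate 1, control replicate 2 and overexpression replicate 2. The aminotransferase encoded by eca39 acts in the same pathway. The pyruvate dehydrogenase genes pda1 and pdb1 differed by 0.22 and 0.13 (limma, adjusted p = 0.0942 and 0.301) and passed with the deposited values (adjusted p = 0.0152 and 0.0210). The thiamine diphosphokinase gene tnr3, whose loss is known to derepress the thiamine genes, stood at 6.95 and 7.23 on the empty vector arrays and at 6.70 and 6.64 on the overexpression arrays. Its difference of -0.42 ± 0.14 (SE) did not pass (limma, adjusted p = 0.0740). In limma it passed as lower with median centring (adjusted p = 0.0473), the length correction (adjusted p = 0.0457) and the replicate block (adjusted p = 0.0347). In the deposited values the difference was -0.20 and did not pass (limma, adjusted p = 0.275). With 1 array left out it ran from -0.56 without control replicate 1 to -0.27 without control replicate 2.

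Of 10 listed genes of phosphate uptake and phosphatases, 3 were measured and none passed in limma, although csk1 had an unadjusted p under 0.05. The differences were -0.29 for the kinase gene csk1, 0.15 for the phosphatase gene pho2 and -0.09 for the polyphosphate polymerase gene vtc4, and vtc4 was positive in the deposited values. With median centring csk1 passed as lower (limma, adjusted p = 0.0357), and with the deposited values pho2 passed as higher (limma, adjusted p = 0.00949). The phosphate-regulated pho1 was not analysed here.

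Among 7 listed genes of other vitamins, 4 were measured. Beside 10.3% of all tested genes that rose and 11.0% that fell, 2 of these 4 rose, 1 fell and 1 did not pass. The largest difference of these was that of snz1, which encodes a subunit of the vitamin B6 synthase, at 9.27 and 9.33 on the empty vector arrays and 10.12 and 10.17 on the overexpression arrays. Both groups were tight, and the difference of 0.85 ± 0.07 (SE), or 1.80-fold, passed with all arrays (limma, adjusted p = 0.00188) and whichever array was left out. The biotin transporter gene vht1 rose by 0.56 ± 0.12 (SE; limma, adjusted p = 0.0174), with adjusted p values of 0.0862, 0.141 and 0.0794 without control replicate 1, control replicate 2 and overexpression replicate 2. The pyridoxal reductase gene plr1, also of vitamin B6, fell by 0.52 on the log2 scale, from 9.81 and 9.81 to 9.27 and 9.32 (limma, adjusted p = 0.00601), with adjusted p values of 0.0779 and 0.0914 without control replicate 1 and control replicate 2. The pantothenate transporter gene liz1 differed by 0.15 with overlapping groups (limma, adjusted p = 0.568). Of the vitamin B6 genes measured, bsu1 and snz1 therefore rose and plr1 fell.

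By the distance between profiles centred on their own mean over the 4 arrays, bsu1 was the closest of the other 7 genes to nmt1, at 0.17 log2 units, followed by pho4 at 0.37 and thi1 at 0.41, and thi5 was the farthest at 0.86. The 3 tested genes outside the list that lay closest were the histone H4 gene hhf1 at 0.01, the cell wall protein gene ecm33 at 0.05 and the DNA repair gene uve1 at 0.05. All 3 were closer to nmt1 than any thiamine-regulated gene was, and their own log2 differences were 0.68, 0.68 and 0.69. These 3 were picked as the closest from a far larger pool, since 2857 genes were tested and only 7 were the other thiamine-regulated genes. The closest of so large a pool would lie near nmt1 in any case. This order therefore cannot show whether nmt1 moved with the other 7 genes. The hhf1 transcript has near-identical copies, so its value is uncertain, and 4 arrays define a profile only coarsely.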

How the data were processed

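Per the labels' protocols, total RNA was converted to biotinylated cRNA for Affymetrix arrays. The authors deposited log2 probe set values, judged as log2 from their range of 1.46 to 14.0, while no source used here names how they were summarised or normalized. Of 10928 probe sets, 2917 were matched to S. pombe genes through the platform annotation and the RefSeq table of ASM294v3 (used for names, gene lengths and neighbours), giving 2899 genes by the probe set with the highest mean, and 2593 were S. cerevisiae probe sets. Genes were quantile normalized and kept if above background, the 95th percentile of the S. cerevisiae probe sets of the array, on at least 2 arrays. The groups were fitted in R 4.3.3 with limma 3.58.1 (lmFit, then eBayes with trend). Adjusted p values are Benjamini-Hochberg values over the 2857 genes, and the fit was tested on simulated data. The simulated noise was independent and held no array differences parallel with the groups, so that test does not cover those seen here. Figures used matplotlib 3.10.9 and Python 3.11.15. The number of arrays limits precision. Standard errors, intervals and p-values measure only the spread between arrays within the groups, 2 per group. For each gene, eBayes drew that spread toward a trend fitted over all genes kept, so they do not rest on the gene's own arrays alone. The rule named the 8 genes, atf1, nearest protein-coding neighbours, members of 4 lists and the 3 genes closest to nmt1. The genes and lists were chosen with earlier results of these data known. Also tried were other scalings, filters on dim genes, variance models and probe set rules, a length correction, a replicate block, a looser threshold and leaving out each array, with normalization repeated.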

Additional observations from a re-analysis of the deposited data

Results flagged for a closer look

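The S. cerevisiae LEU2 probe set, which is not among the S. pombe genes compared, gave a strong signal on all 4 arrays. LEU2 is a selectable marker of many fission yeast plasmids, since it complements a defect in the fission yeast gene leu1. On the deposited log2 scale it read 12.28 and 12.31 on the empty vector arrays and 12.71 and 12.82 on the overexpression arrays, the highest mean of all 2593 S. cerevisiae probe sets. Both overexpression arrays were higher than both control arrays, by a mean log2 difference of 0.47 on the deposited scale, on which the median gene differed by 0.27, and the difference was not tested. The S. cerevisiae URA3 probe set was above background on none of the 4 arrays.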

How the results depend on the processing

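The number of the 8 thiamine-regulated genes that rose, 3 with all arrays, was 5 with the deposited values, 5 at an adjusted p under 0.1, 1 without a variance trend (nmt1, adjusted p = 0.0497, where bsu1, pho4, atf1, met26, eca39, apq12, ilv1, vht1 and plr1 did not pass, at adjusted p values of 0.0506 to 0.104) and 0 to 2 when 1 array was left out, and none fell in any setting run. Over all genes 607 passed, against 1019 with the deposited values, 940 at the looser threshold, 179 without a variance trend and 50 to 634 with 1 array left out (50 and 67 without control replicate 1 or 2, and 301 without overexpression replicate 2). The deposited values gave 903 rises and 116 falls, against 294 and 313. Without a variance trend 103 genes rose and 76 fell, and with the replicate block 410 rose and 427 fell. The cause of these changes was not tested. The values showed no pairing by replicate number (r = 0.04 across genes between the replicate differences of the groups). Whether arrays of the same number were prepared together is not known, and this correlation cannot decide it. With the replicate block 837 genes passed, and thi1 passed as well (adjusted p = 0.0347), giving 4 of 8. Signs turned for thi2 with median centring (-0.19), for thi5 (0.014), cnl2 (0.15), cdb4 (0.14), vtc4 (0.078) and leu1 (0.13) with the deposited values, and, with 1 array left out, for cnl2 (range -0.31 to 0.023), cdb4 (range -0.086 to 0.047) and liz1 (range -0.044 to 0.36). For cdb4 they also turned with quantile normalization over all probe sets (0.014) and with the length correction (0.023). Of 112 values of the 8 genes under the alternatives, 96 kept sign and side of the threshold. That count includes genes that did not pass in the main fit. It also includes filters, variance models and the replicate block, which left the differences unchanged, so no sign could turn there. Of 14 alternatives each, nmt1 kept both in 13, bsu1 in 10 and pho4 in 9.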

Other observations

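Among S. cerevisiae namesakes of the thiamine genes, the probe sets of THI2, THI4, THI7, NMT1 (N-myristoyltransferase, unrelated to fission yeast nmt1) and PHO4 were above background on 0 of 4 arrays each. Of the S. pombe genes used as plasmid or strain markers, ura4 was above background on 2 of 4 arrays, at deposited log2 values of 3.23 and 2.92 on the empty vector arrays and 2.79 and 2.51 on the overexpression arrays. The leu1 transcript differed by -0.11 (limma, adjusted p = 0.264), and was positive before normalization, his3 by 0.25 (adjusted p = 0.265) and ade6 by 0.22 (adjusted p = 0.185), and none of these 4 genes passed.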
